A study of Mus musculus with 12 samples.

Results

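The Ms4a genes encode small proteins that cross the cell membrane several times and sit beside other receptors. The 7 genes described here are Ms4a4a, Ms4a4b, Ms4a4c, Ms4a6b, Ms4a6c, Ms4a6d and Ms4a7, taken by symbol from the 52636 gene identifiers of the count table through the GENCODE M21 annotation. Another 12 Ms4a genes of that annotation were kept for comparison. RNA was sequenced from primary microglia of WT C57BL/6 mouse pups aged 1 to 2 days, shaken off flasks of dissociated brain. Every well of each group held 50000 plated cells and 2.5 ng of the growth factor CSF1. The cells were exposed for 24 h to 5 µg of full-length neurofilament light chain (FL-NfL), to 5 µg of its coiled-coil part (CC-NfL) or to vehicle, with 4 libraries per group. NfL is an axonal structural protein that leaves damaged neurons. Each of the 4 batches named in the labels (b1 to b4) held 1 library of each group, and the replicate number is the batch number. The labels do not say whether a batch was a separate culture or litter, and the spread on which the p-values rest may therefore be technical. The design compares each NfL form with vehicle and the NfL forms with each other.

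The family includes CD20 (Ms4a1) of B cells and the beta chain of the high-affinity IgE receptor (Ms4a2) of mast cells. Mouse Ms4a7 is a marker of macrophages at the borders of the brain, Ms4a4b is best known from T cells, and Ms4a4c and the Ms4a6 genes are known from monocytes and macrophages. In humans, MS4A4A has been tied to the amount of soluble TREM2 in spinal fluid and to signalling through the receptor dectin-1.

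The 7 genes lay together on chromosome 19 between positions 11321039 and 11604849 of GRCm38, inside a cluster of 19 Ms4a genes that spanned 678.6 kb. Ms4a7 (ENSMUSG00000024672, 11321039 to 11336146, minus strand) was followed by Ms4a4a (ENSMUSG00000101389, 11375523 to 11392790, plus strand), Ms4a4c (ENSMUSG00000024675, 11404770 to 11427246, plus strand) and Ms4a4b (ENSMUSG00000056290, 11443553 to 11467055, plus strand). Then came Ms4a6c (ENSMUSG00000079419, 11469366 to 11482192, plus strand), Ms4a6b (ENSMUSG00000024677, 11516512 to 11531256, plus strand) and Ms4a6d (ENSMUSG00000024679, 11586604 to 11604849, minus strand). Their coding sequences fell into close pairs and distant ones. Ms4a4b and Ms4a4c matched at 91.8% of aligned coding bases, Ms4a6b and Ms4a6c at 85.0%, Ms4a6b and Ms4a6d at 80.7%, and Ms4a6c and Ms4a6d at 76.3%. Ms4a4a matched its nearest relative Ms4a4c at 64.1%, and Ms4a7 matched no other of the 7 genes above 56.4%. Reads of 50 bases can therefore fall where genes are identical: 135 of the 1747 windows of 50 bases in Ms4a4c transcripts also occurred in Ms4a4b, and 117 of the 2001 windows of Ms4a6c occurred in Ms4a6b. Levels within these pairs are uncertain to that extent. In addition, 993 windows of Ms4a6c lay on the opposite strand in BE692007, an antisense gene, and the counting strand is not given in the sources used here. BE692007 held 28 to 112 counts per library, and Ms4a6c held 4192 to 16110. Whether reads from the overlap were left out of the Ms4a6c counts was not tested.

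**Figure D1:**
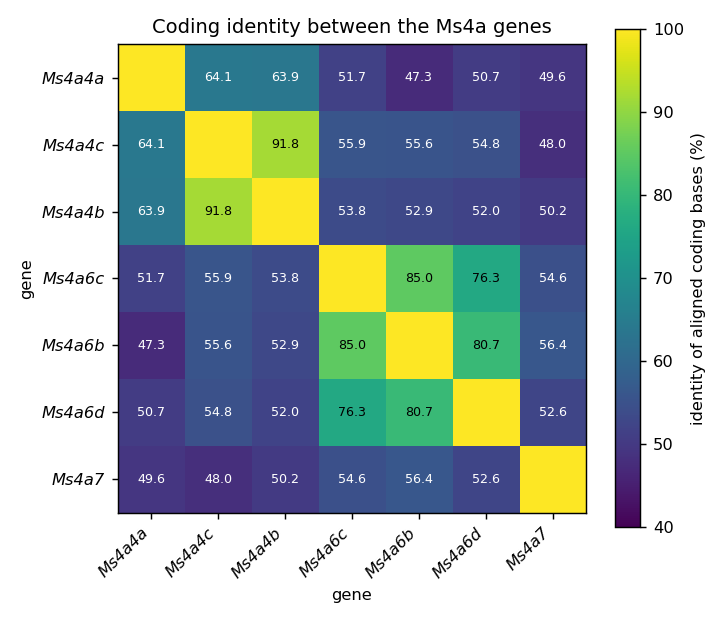
Identity of the aligned coding bases (%, colour and number) between the 7 Ms4a genes, which run along both axes. Ms4a4b with Ms4a4c (91.8%) and Ms4a6b with Ms4a6c (85.0%) form the closest pairs, and Ms4a7 stays at or below 56.4% with each of the others.

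The promoter windows of both pairs are shown because the members of a pair can be set against each other in level and in response. The RefSeq windows (GRCm38.p6, 250 bases before to 50 after a start site) were matched for 6 of the 7 genes; Ms4a6d had no entry in the table. Capitals mark the longest run of identical bases shared by the members of a pair. It was 48 bases in Ms4a6c (chr19:11469118-11469417, plus strand) and Ms4a6b (chr19:11518309-11518608, plus strand). In Ms4a4c (chr19:11407411-11407710, plus strand) and Ms4a4b (chr19:11443308-11443607, plus strand) it was 20 bases. Another run of that length, shared by Ms4a4c and Ms4a4b further along the windows, was left in lower case.
Ms4a6c: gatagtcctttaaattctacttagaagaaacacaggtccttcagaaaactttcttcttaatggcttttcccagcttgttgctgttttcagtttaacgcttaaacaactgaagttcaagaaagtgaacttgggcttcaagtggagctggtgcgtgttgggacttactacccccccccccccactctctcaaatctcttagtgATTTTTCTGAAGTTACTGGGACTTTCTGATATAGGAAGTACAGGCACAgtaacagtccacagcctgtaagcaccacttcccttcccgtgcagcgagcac
Ms4a6b: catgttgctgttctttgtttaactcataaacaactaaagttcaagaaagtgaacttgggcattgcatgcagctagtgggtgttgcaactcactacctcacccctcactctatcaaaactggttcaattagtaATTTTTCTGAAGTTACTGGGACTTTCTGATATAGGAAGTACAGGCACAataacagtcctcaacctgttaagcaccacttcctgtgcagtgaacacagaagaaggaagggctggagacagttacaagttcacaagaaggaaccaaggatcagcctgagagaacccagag
Ms4a4c: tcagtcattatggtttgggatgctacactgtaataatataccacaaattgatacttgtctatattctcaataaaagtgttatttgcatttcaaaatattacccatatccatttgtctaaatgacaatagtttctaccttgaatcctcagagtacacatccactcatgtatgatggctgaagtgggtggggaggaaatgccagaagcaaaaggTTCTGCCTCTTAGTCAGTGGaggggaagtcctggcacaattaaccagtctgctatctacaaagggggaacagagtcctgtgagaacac
Ms4a4b: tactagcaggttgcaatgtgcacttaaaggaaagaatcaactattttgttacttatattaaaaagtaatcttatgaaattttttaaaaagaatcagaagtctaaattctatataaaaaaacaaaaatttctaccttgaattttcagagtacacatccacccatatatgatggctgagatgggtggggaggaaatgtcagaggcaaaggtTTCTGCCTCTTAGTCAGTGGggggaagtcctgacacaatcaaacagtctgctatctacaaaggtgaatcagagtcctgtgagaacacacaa
In local alignments the Ms4a6c and Ms4a6b windows matched at 188 of 218 aligned bases (86.2%) and the Ms4a4c and Ms4a4b windows at 162 of 182 (89.0%). The letters AGGAAGT, a site of ETS factors such as PU.1, were searched on both strands. They occurred in the shared run of Ms4a6c, 17 bases before the start site, and in that of Ms4a6b, 86 bases before it, with a further match on the other strand of Ms4a6b 43 bases before its start. Of all 32851 windows of this length, 9.35% held those letters. The interferon-response letters GAAANNGAAA and the letters TTCNNNGAA, a site of STAT factors, were found in 0 of the 7 windows of the 6 genes, against 3.44% and 8.3% of all windows. The AP-1 letters TGANTCA occurred in 2 of the 7 windows, a second one of Ms4a7 and that of Ms4a4b, against 7.81% of all windows. A match describes letters in a window and shows no binding.

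Libraries held 20162427 to 31048044 counts, and all 7 genes passed the filter on low counts that left 14687 genes. Microglial identity was checked with 9 markers: 8 were tested and their summed level was 6760 to 7000 CPM with FL-NfL, 7590 to 8270 with CC-NfL and 7520 to 8950 with vehicle, where CPM are counts scaled to a common library size with a TMM factor (TMM-scaled CPM). With FL-NfL, Aif1 rose, Csf1r and Cx3cr1 were among the markers that fell, and with CC-NfL 0 of the 8 passed the test. Aif1 had a CC-NfL log2 change of 1.11 (95% interval 0.44 to 1.78; adjusted p = 0.621). Siglech, the remaining marker, had at most 10 counts in a library. Of 7 markers of T and NK cells, Cd3e, Cd3d, Cd3g, Ncr1 and Nkg7 had 0 counts in every library, as did Chil3 among monocyte markers, Mcpt4 and Tpsb2 among mast cell markers, and S100a9 and Retnlg among neutrophil markers. In each of these lists other members had counts. Lck, of the T and NK cell list, had 20 to 39 counts per library and a FL-NfL log2 change of −0.27 ± 0.23, and Cd2 had at most 2 counts. Kit, of the mast cell list, had 8 to 142 counts and passed as lower with FL-NfL under the batch block only (−0.54, adjusted p = 0.0383), and S100a8, of the neutrophil list, had 1 to 36 counts. T and NK cell markers summed to 0.949 to 1.37 CPM with FL-NfL, 1.07 to 1.55 with CC-NfL and 1.09 to 1.69 with vehicle. Mast cell markers summed to 0.628 to 3.65 CPM with FL-NfL, 0.451 to 4.8 with CC-NfL and 0.964 to 6.18 with vehicle. Neutrophil markers summed to at most 1.26 CPM in any library. Cd79b, the B cell marker that was tested, rose with FL-NfL, and the 4 B cell markers summed to 1.0 to 1.83 CPM with FL-NfL, 0.691 to 1.25 with CC-NfL and 0.419 to 0.868 with vehicle. Monocyte markers summed to 9.25 to 16.7 CPM with FL-NfL, 9.33 to 22.3 with CC-NfL and 11.3 to 29.0 with vehicle. Neuron markers summed to 7.45 to 25.4 CPM with FL-NfL, 12.6 to 39.4 with CC-NfL and 15.8 to 52.5 with vehicle, and with FL-NfL 1 of 5 (Rbfox3) was called lower, or 5 of 5 with the batch as a block. Astrocyte markers summed to 20.7 to 31.2 CPM with FL-NfL, 20.9 to 45.5 with CC-NfL and 22.3 to 50.2 with vehicle. Oligodendrocyte lineage markers summed to 85.5 to 109 CPM with FL-NfL, 107 to 188 with CC-NfL and 115 to 172 with vehicle. With FL-NfL, 0 astrocyte and 0 oligodendrocyte lineage markers were called, and 4 of 6 and 4 of 5 tested were lower with the block. Of the monocyte and fibroblast markers, 0 were called without the block, and 2 of 2 and 1 of 3 tested were lower with it. Among all tested genes, 10.9% were called lower with FL-NfL without the block and 22.4% with it. Fibroblast markers summed to 0.142 to 2.07 CPM with FL-NfL, 0.461 to 3.26 with CC-NfL and 0.605 to 4.46 with vehicle. The part of other cells in the Ms4a values was not tested. In bulk RNA, fewer cells of a type and less RNA per cell cannot be told apart.

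Levels of these genes differed between batches within each group. FL-NfL replicate 3 had the highest level of its group in 6 of the 7 genes and FL-NfL replicate 1 the lowest in 6. CC-NfL replicate 1 was the lowest of its group in 5 genes. Vehicle replicate 3 was the highest of its group in 7 genes and vehicle replicate 1 the lowest in 6.

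Scaled by exon length, Ms4a6d had the highest mean level of the 7 genes in each group and Ms4a4b the lowest. With FL-NfL the order by mean level was Ms4a6d (441 ± 85.9 CPM per kb of exon, SD, n = 4), Ms4a6c (291 ± 47.6), Ms4a7 (188 ± 40.7), Ms4a4c (96.2 ± 61.5), Ms4a6b (85.5 ± 32.7), Ms4a4a (37.2 ± 12.8) and Ms4a4b (0.187 ± 0.072). The FL-NfL libraries of neighbours in that order overlapped, except between Ms4a6c and Ms4a7 and between Ms4a4a and Ms4a4b. With CC-NfL the order was Ms4a6d (247 ± 36.7), Ms4a6c (196 ± 64.3), Ms4a7 (171 ± 46.3), Ms4a6b (62.5 ± 23.0), Ms4a4a (44.6 ± 25.5), Ms4a4c (42.8 ± 28.8) and Ms4a4b (0.156 ± 0.070). Here Ms4a7 lay apart from Ms4a6b and Ms4a4c from Ms4a4b, and the other neighbours overlapped. In vehicle, Ms4a6d averaged 207 ± 47.5 CPM per kb, Ms4a7 132 ± 40.9, Ms4a6c 129 ± 60.0, Ms4a4a 61.2 ± 37.1, Ms4a6b 43.0 ± 23.7, Ms4a4c 15.1 ± 15.2 and Ms4a4b 0.140 ± 0.105. The vehicle libraries of each gene overlapped those of its neighbour in that order, except that Ms4a4b lay apart from Ms4a4c. Ms4a4c stood at place 4 with FL-NfL and at place 6 with CC-NfL and with vehicle, while Ms4a4a stood at places 6, 5 and 4 in the same groups. Scaled by the longest coding transcript in place of all exons, Ms4a7 took place 2 with FL-NfL and place 1 with CC-NfL and with vehicle (374 CPM per kb, beside 253 for Ms4a6d in vehicle). Together the 7 genes took 0.185% to 0.332% of the scaled library with FL-NfL, 0.12% to 0.24% with CC-NfL and 0.112% to 0.226% with vehicle.

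**Figure D2:**
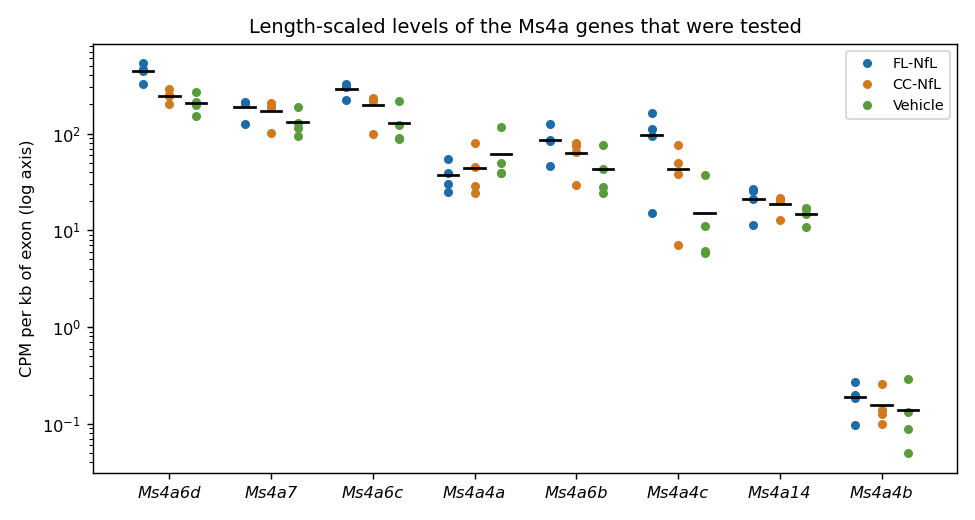
Levels of the 8 tested Ms4a genes as CPM per kb of exon on a log axis, with 1 point per library for FL-NfL, CC-NfL and vehicle and a bar at the mean of 4 libraries. Ms4a6d is highest in each group and Ms4a4b lies below 0.3 CPM per kb in each library.

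FL-NfL raised Ms4a4c, Ms4a6c and Ms4a6d, with fitted folds of 6.34, 2.25 and 2.13, while Ms4a4a had a lower mean that did not pass the test. Of the 7 genes, 3 were called higher and 0 lower at an adjusted p under 0.05 in edgeR's quasi-likelihood test, where 14% of all tested genes were higher and 10.9% lower. At an unadjusted p under 0.05 there were 4 of the 7 genes (the 3 above and Ms4a6b), among 38.5% of all tested genes. DESeq2 called 3 of the 7 higher and 0 lower, and 2270 genes higher and 1919 lower in all. The median log2 fold change of the 7 genes was 0.99, and that of all tested genes −0.02. With the batch as a block in the model, 5 were higher (background 21.4%) and 1 lower (22.4%), out of 43.8% of all tested genes called in either direction. Without vehicle replicate 3, 5 were higher and 0 lower, and among all genes 2349 were higher and 1735 lower. Without vehicle replicate 1, and without vehicle replicate 4, Ms4a6d alone of the 7 was called. The calls among all genes without vehicle replicate 1 were 1613 higher and 1169 lower, so the total moved with the library left out.

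Ms4a6d, a member of the macrophage-expressed Ms4a6 group, measured 563, 921, 801 and 773 CPM in FL-NfL replicates 1 to 4, against 366, 342, 463 and 264 CPM in vehicle replicates 1 to 4. The lowest FL-NfL library lay above the highest vehicle library. Here and below, the share of all tested genes whose groups did not overlap was not counted. The change was 1.09 ± 0.18 on the log2 scale (SE; 95% interval 0.69 to 1.49; adjusted p = 0.00221), a 2.13-fold rise seen in 4 of 4 batches, with within-batch log2 differences of 0.62, 1.43, 0.79 and 1.55. The call held in each of the 19 alternative fits, at log2 fold changes of 0.98 to 1.24.

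Ms4a6c, of the same group, measured 454, 632, 674 and 625 CPM in FL-NfL replicates 1 to 4, against 182, 249, 444 and 186 CPM in vehicle replicates 1 to 4. These groups did not overlap either, though FL-NfL replicate 1 and vehicle replicate 3 lay close together. The log2 change was 1.17 ± 0.31 (95% interval 0.49 to 1.85; adjusted p = 0.0188) and was positive in 4 of 4 batches, from 0.60 to 1.75. It missed the threshold without vehicle replicate 1 (1.03, adjusted p = 0.0523) and without vehicle replicate 4 (1.04, adjusted p = 0.0537), within a range of 0.000426 to 0.0537 over the alternatives. Without vehicle replicate 3 it was 1.54.

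Ms4a4c, a gene known to respond to interferon in mouse myeloid cells, had the widest span. It measured 26.4, 194, 287 and 167 CPM in FL-NfL replicates 1 to 4, against 10.1, 19.4, 66.0 and 10.6 CPM in vehicle replicates 1 to 4. FL-NfL replicate 1 lay below vehicle replicate 3, so the groups overlapped, yet each FL-NfL library exceeded the vehicle library of its own batch. The log2 change was 2.66 ± 0.84 (95% interval 0.84 to 4.49; adjusted p = 0.0366), the 45th largest rise among the 14687 tested genes, with within-batch log2 differences of 1.38, 3.32, 2.12 and 3.97. The call did not stand without FL-NfL replicate 2 (2.60), 3 (2.28) or 4 (2.68), nor without vehicle replicate 1 (2.39), 2 (2.56) or 4 (2.42), where the adjusted p was 0.0649 to 0.0932. Without vehicle replicate 3 the change was 3.66 (adjusted p = 0.0113), and with the batch as a block 2.62 (adjusted p = 0.000537).

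Ms4a6b, the close relative of Ms4a6c, measured 206, 386, 565 and 377 CPM in FL-NfL replicates 1 to 4, against 109, 193, 343 and 127 CPM in vehicle replicates 1 to 4. The highest library was 2.75 times the lowest with FL-NfL and 3.15 times the lowest with vehicle, and the groups overlapped. The log2 change of 0.99 ± 0.41 (95% interval 0.10 to 1.88) did not pass the test (adjusted p = 0.0955), although the FL-NfL library was the higher one in 4 of 4 batches (0.72 to 1.57). It passed with the batch as a block (1.03, adjusted p = 0.000349), without vehicle replicate 3 (1.42, adjusted p = 0.0197) and without FL-NfL replicate 1 (1.20, adjusted p = 0.0469).

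Ms4a7 measured 566, 924, 943 and 913 CPM in FL-NfL replicates 1 to 4, against 421, 576, 845 and 514 CPM in vehicle replicates 1 to 4. FL-NfL replicate 1 stood apart from the other 3 and within the vehicle range. The log2 change of 0.51 ± 0.25 (95% interval −0.05 to 1.06) did not pass the test (adjusted p = 0.163), with the higher level in the FL-NfL library of 4 of 4 batches (0.16 to 0.83). It passed with the block (0.51, adjusted p = 0.00508) and without vehicle replicate 3 (0.73, adjusted p = 0.0442).

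Ms4a4a was the one gene of the 7 with a negative fitted change. It measured 32.9, 25.0, 45.3 and 21.0 CPM in FL-NfL replicates 1 to 4, against 32.6, 42.0, 97.2 and 32.9 CPM in vehicle replicates 1 to 4. Levels were alike in batch 1 and lower with FL-NfL in batches 2, 3 and 4, with log2 differences of 0.02, −0.75, −1.10 and −0.65. The change of −0.72 ± 0.43 (95% interval −1.66 to 0.22; adjusted p = 0.242) passed with the block (−0.64, adjusted p = 0.00738). Without vehicle replicate 3 it was −0.20 (adjusted p = 0.708).

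Ms4a4b had 10 to 63 counts per library, which limits its precision. It measured 0.849, 1.73, 2.39 and 1.61 CPM in FL-NfL replicates 1 to 4, against 0.434, 1.17, 2.53 and 0.778 CPM in vehicle replicates 1 to 4. The groups overlapped widely, and the log2 change of 0.41 ± 0.50 (95% interval −0.67 to 1.49; adjusted p = 0.568) left a rise or a fall possible at this depth. Without vehicle replicate 3 the value was 1.04 (adjusted p = 0.107). Of the T and NK cell markers, Cd3e, Cd3d, Cd3g, Ncr1 and Nkg7 were at 0 counts in every library, while Lck had 20 to 39.

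**Figure D3:**
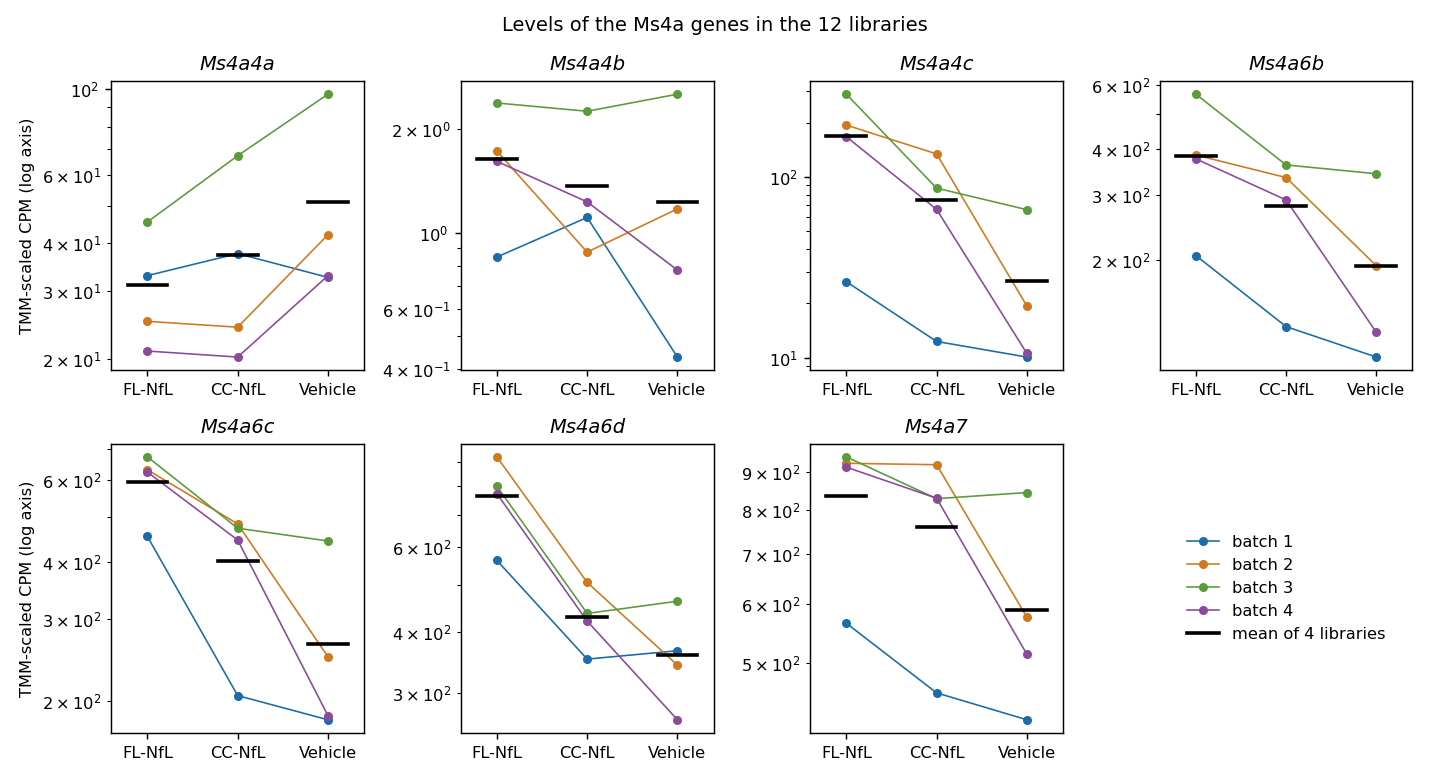
TMM-scaled CPM of the 7 Ms4a genes in each library on log axes, with groups along the x axis, lines joining the libraries of a batch and bars at the mean of 4 libraries. Ms4a6c and Ms4a6d have FL-NfL libraries that all lie above the vehicle libraries, and batch 3 is the highest vehicle library in each panel.

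CC-NfL had smaller differences from vehicle, none of which passed the test. Of the 7 genes, 0 were called higher and 0 lower in edgeR, among 0% of all tested genes in either direction. At an unadjusted p under 0.05 there were 0 of the 7 genes and 1082 genes in all (7.37%), and DESeq2 called 25 genes higher and 9 lower, none of them among the 7. With the block, 1 gene was higher and 1 lower of all tested (0.00681% each, 0.0136% in either direction), again none of the 7. The median log2 fold change of the 7 genes was 0.37, and that of all tested genes 0.00.

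The vehicle libraries are the same as in the comparison with FL-NfL, so the directions of both are not independent. Ms4a4c measured 12.3, 134, 86.8 and 66.2 CPM in CC-NfL replicates 1 to 4, against the 10.1, 19.4, 66.0 and 10.6 CPM of vehicle. Replicates 2 and 4 were far above the vehicle library of their batch (log2 differences 2.79 and 2.64) and replicates 1 and 3 little above it (0.28 and 0.40). The change of 1.496 ± 0.81 (adjusted p = 0.724) had a 95% interval from −0.27 to 3.26, and it was 2.49 without vehicle replicate 3.

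Ms4a6c followed the same division of batches. It measured 205, 483, 473 and 446 CPM in CC-NfL replicates 1 to 4, with within-batch log2 differences of 0.17, 0.96, 0.09 and 1.26 and a fitted change of 0.60 ± 0.31 (95% interval −0.08 to 1.28; adjusted p = 0.705). That change was 0.97 without vehicle replicate 3 (adjusted p = 0.333). Ms4a6b measured 132, 335, 363 and 291 CPM in CC-NfL replicates 1 to 4, with within-batch differences of 0.28, 0.80, 0.08 and 1.20 and a fitted change of 0.54 ± 0.41 (−0.35 to 1.42), or 0.97 without vehicle replicate 3 (adjusted p = 0.380). Both genes were higher with CC-NfL in 4 of 4 batches, by more in batches 2 and 4 than in batches 1 and 3.

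Ms4a7 measured 457, 920, 829 and 830 CPM in CC-NfL replicates 1 to 4, with a fitted log2 change of 0.37 ± 0.25 (95% interval −0.19 to 0.92), or 0.59 without vehicle replicate 3. Ms4a6d measured 352, 507, 437 and 422 CPM in CC-NfL replicates 1 to 4, with a fitted log2 change of 0.26 ± 0.18 (−0.14 to 0.66), or 0.41 without vehicle replicate 3. For Ms4a7 and Ms4a6d the differences in batches 2 and 4 were 0.57 to 0.69, and those in batches 1 and 3 were −0.08 to 0.12. Ms4a14 and the related genes Tmem176a and Tmem176b had the same division with CC-NfL, while Ms4a4a and Ms4a4b did not. The Tmem176a differences in batches 1 to 4 were −0.25, 1.26, 0.20 and 1.20. Those of Tmem176b were −0.19, 0.85, 0.14 and 0.81, and those of Ms4a14 0.21, 0.36, 0.29 and 0.44. The division was thus not limited to Ms4a genes, and its share among all tested genes was not counted. Ms4a4a measured 37.5, 24.2, 67.3 and 20.2 CPM in CC-NfL replicates 1 to 4 (fitted log2 change −0.46 ± 0.43, 95% interval −1.40 to 0.48, adjusted p = 0.838). Without vehicle replicate 3 its change was 0.06. Ms4a4b measured 1.11, 0.877, 2.26 and 1.23 CPM in CC-NfL replicates 1 to 4 (0.13 ± 0.50, −0.95 to 1.22), a value whose sign turned without CC-NfL replicate 3 (−0.20), vehicle replicate 1 (−0.15) or vehicle replicate 4 (−0.03) and that was 0.76 without vehicle replicate 3.

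**Figure D4:**
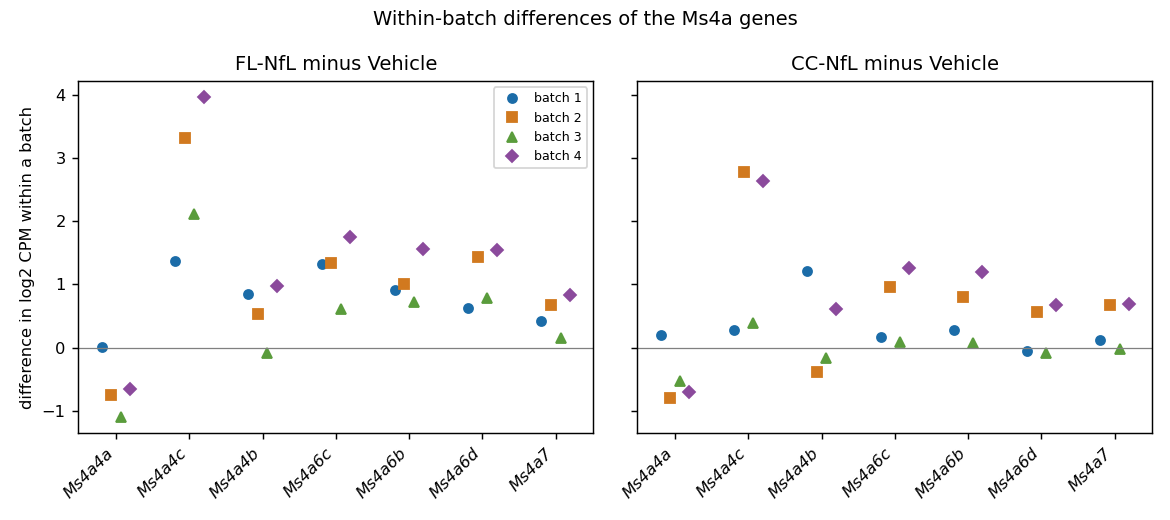
Differences in log2 CPM between the NfL library and the vehicle library of the same batch for the 7 Ms4a genes, with 1 symbol per batch, FL-NfL on the left and CC-NfL on the right. Ms4a4c, Ms4a6b and Ms4a6c lie above 0 in each batch of both panels, and for CC-NfL batches 2 and 4 lie above batches 1 and 3 for Ms4a4c, Ms4a6b, Ms4a6c, Ms4a6d and Ms4a7. The share of all tested genes with that division of batches was not counted.

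Set directly against CC-NfL, FL-NfL gave more Ms4a6d. Of the 7 genes, 1 was called higher (Ms4a6d) and 0 lower, where 1.38% of all tested genes were higher and 1.34% lower (2.72% in either direction). The FL-NfL libraries (563 to 921 CPM) lay above the CC-NfL libraries (352 to 507 CPM) without overlap. The log2 difference was 0.83 ± 0.18 (95% interval 0.43 to 1.23; adjusted p = 0.0390), with within-batch values of 0.68, 0.86, 0.87 and 0.87 in a narrow band. The call was lost without FL-NfL replicate 2 (0.73), 3 (0.81) or 4 (0.84), CC-NfL replicate 1 (0.76), 3 (0.84) or 4 (0.83), or vehicle replicate 2 (0.84), at adjusted p of 0.0547 to 0.121. It held with the block (0.83, adjusted p = 0.00414) and in DESeq2 (0.83, adjusted p = 0.000639).

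The other 6 genes did not pass that test. Ms4a6c differed by 0.57 ± 0.31 (95% interval −0.11 to 1.25; adjusted p = 0.316) and passed with the block (0.62, adjusted p = 0.0356), when 2 of the 7 genes were higher (background 8.99%) and 0 lower (10.1%). Ms4a4c differed by 1.17 ± 0.79 (−0.56 to 2.89) and Ms4a6b by 0.45 ± 0.41 (−0.43 to 1.33), each higher with FL-NfL in 4 of 4 batches. Within batches, the order FL-NfL above CC-NfL above vehicle was met in 4 of 4 batches by Ms4a4c, Ms4a6b and Ms4a6c. Ms4a7 met that order in 3 batches, Ms4a6d in 2, Ms4a4b in 1 and Ms4a4a in 0. The share of all tested genes that met it was not counted. For Ms4a7 the difference between the NfL forms was 0.14 ± 0.25, with an interval from −0.41 to 0.69, and it was −0.03 without CC-NfL replicate 1. For Ms4a4b it was 0.28 ± 0.49 (−0.80 to 1.35). For Ms4a4a it was −0.26 ± 0.43 (−1.20 to 0.68), and 0.19 without CC-NfL replicate 3.

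**Figure D5:**
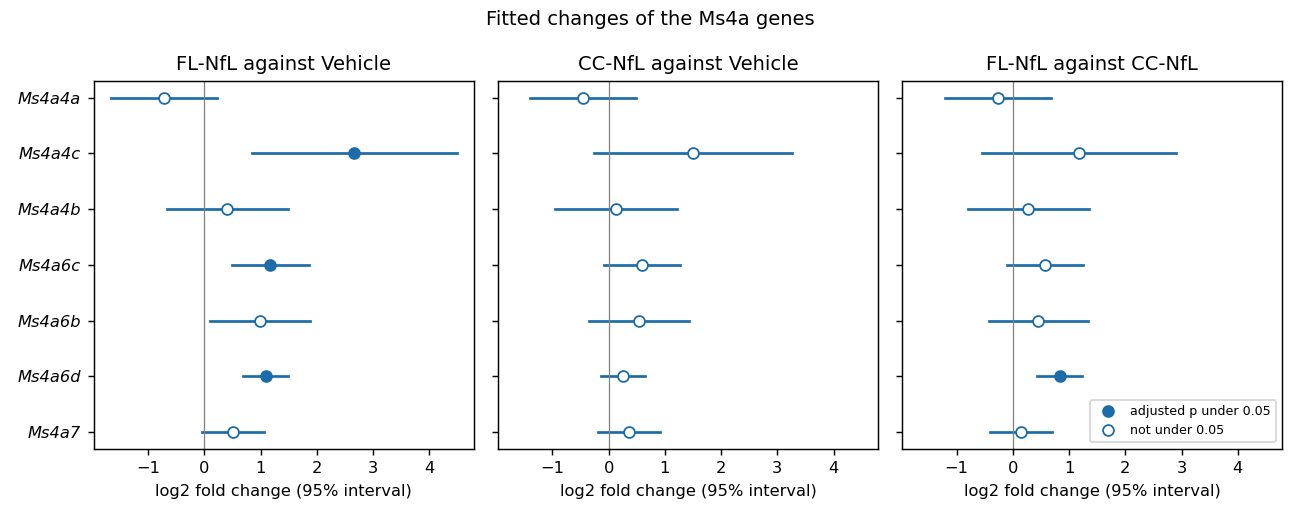
Fitted log2 fold changes with 95% intervals for the 7 Ms4a genes in the 3 comparisons, with filled points where the adjusted p was under 0.05. Ms4a4c, Ms4a6c and Ms4a6d are filled for FL-NfL against vehicle, no gene for CC-NfL against vehicle and Ms4a6d for FL-NfL against CC-NfL.

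Among the other 12 Ms4a genes, Ms4a14 alone passed the filter on low counts. It measured 46.7, 109, 85.6 and 105 CPM in FL-NfL replicates 1 to 4 and 51.5, 87.5, 84.7 and 80.9 CPM in CC-NfL replicates 1 to 4, against 44.5, 68.0, 69.4 and 59.5 CPM in vehicle replicates 1 to 4. The FL-NfL change of 0.52 ± 0.25 on the log2 scale (adjusted p = 0.149) did not pass the test, and it passed with the block (0.47, adjusted p = 0.00352). Ms4a1, the gene of CD20, had 1 to 11 counts per library. Ms4a2, Ms4a3, Ms4a10, Ms4a13, Ms4a15 and Ms4a18 had 0 counts in each library, and the remaining 4 genes had at most 10. The related genes Tmem176a and Tmem176b were also tested, and neither passed without the block. Tmem176b averaged 608 ± 28.2 CPM with FL-NfL and 571 ± 144 with CC-NfL, against 426 ± 84.1 with vehicle (SD, n = 4 each), a log2 change of 0.51 ± 0.18 for FL-NfL (adjusted p = 0.0573, and 0.0207 with the block). Tmem176a averaged 240 ± 22.9 CPM with FL-NfL and 230 ± 77.3 with CC-NfL, against 147 ± 42.9 with vehicle, a log2 change of 0.71 ± 0.25 for FL-NfL (adjusted p = 0.0588, and 0.0183 with the block).

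Genes listed for a link to MS4A proteins, or to receptors, signalling and enzymes around them, were called at shares near those of all genes. A place on the list does not mean that the encoded protein binds an MS4A protein. Of 9 tested, 2 were higher and 1 lower with FL-NfL, where 14% of all tested genes were higher and 10.9% lower. With the block 3 were higher and 2 lower, where 21.4% and 22.4% of all genes were. With CC-NfL 0 of the 9 passed the test in edgeR, with or without the block. Trem2, which encodes a lipid receptor, fell to 298, 159, 236 and 186 CPM in FL-NfL replicates 1 to 4. Vehicle replicates 1 to 4 held 626, 705, 687 and 688 CPM, a log2 change of −1.62 ± 0.19 (adjusted p = 0.000453) with no overlap. Its CC-NfL change was −0.48 ± 0.19 (adjusted p = 0.668). In FL-NfL against CC-NfL it was −1.14 ± 0.19 (adjusted p = 0.0139), where 1 of the 9 was called lower and 0 higher without the block. Fcer1g, the signalling chain shared by Fc receptors, was called higher with 1125, 1361, 1146 and 1293 CPM in FL-NfL replicates 1 to 4, against 594, 607, 767 and 651 CPM in vehicle replicates 1 to 4, a log2 change of 0.91 ± 0.14 (adjusted p = 0.00136), also with no overlap. Syk, the kinase downstream of that chain and of dectin-1, rose by 0.67 ± 0.18 on the log2 scale (adjusted p = 0.0208). Clec7a, which encodes dectin-1, had a change of −0.39 ± 0.17 (adjusted p = 0.102, and 0.0139 with the block). Grn, the progranulin gene, had a change of 0.41 ± 0.17 (adjusted p = 0.0999, and 0.0149 with the block). Clec7a and Grn are named because the block changed their call, a choice made after their values were seen. Tyrobp, Card9, Adam10 and Adam17 passed neither test.

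The genes whose centred log2 levels over the 12 libraries lay nearest to each Ms4a gene differed between members. The measure was the root mean square difference, a description with no test, searched over 12428 named genes outside the family. Ms4a4c lay nearest to Slfn1 (0.488) and Ifi44 (0.497), against a spread of 1.66 of its own around its mean. Ms4a6c lay nearest to Bst2 (0.118), which encodes the antiviral protein tetherin, and to Mlkl (0.166), with a spread of 0.676. Ms4a6b lay nearest to Ifi206 (0.156), of the interferon-inducible p200 family, and to BC147527 (0.169), with a spread of 0.725.

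Ms4a4a lay nearest to Mrc1 (0.282), the mannose receptor of border macrophages, and to Rnase4 (0.294), with a spread of 0.643. Mrc1 averaged 421 CPM with FL-NfL and 654 with CC-NfL, against 805 with vehicle, and its FL-NfL change of −0.94 ± 0.31 passed the test (adjusted p = 0.0457). The 8 markers of border-associated macrophages, Mrc1 included, summed to 384 to 703 CPM with FL-NfL, 569 to 1200 with CC-NfL and 751 to 1400 with vehicle. Of the 7 that were tested, 2 were called lower (Mrc1 and F13a1) and 0 higher with FL-NfL, where 10.9% of all genes were lower and 14% higher. With the block 3 were lower and 1 higher, where 22.4% and 21.4% of all genes were. Cbr2 had the opposite sign (1.73 ± 0.59, adjusted p = 0.0506, and 0.00877 with the block), as did Folr2 (0.25 ± 0.39, adjusted p = 0.664). Lyve1, the marker that was not tested, had at most 5 counts in a library, and Cd163 had 2 to 28. Mrc1 made up much of the sum. The part of these cells in the Ms4a4a and Ms4a7 values was not tested. Ms4a7, itself a marker of those cells, had its nearest patterns in Sass6 (0.095) and Prpf38a (0.104), and Ms4a6d in Car13 (0.111) and Pfkfb3 (0.142), a regulator of glycolysis. Ms4a4b lay nearest to Pde7b (0.305) and Mndal (0.318). Among the 7 genes themselves, Ms4a6b and Ms4a6c were nearest to each other (0.228).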

How the data were processed

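Per the labels' protocols, libraries were made with a stranded mRNA kit and sequenced as single reads of 50 bases. Per the submitters' processing notes, reads were aligned to GRCm38 with GSNAP; the sources used here do not give its version or the counting tool, annotation and strand option. The deposited file holds raw counts per Ensembl gene, 1 column per library, with no normalization. Symbols, positions and transcripts came from GENCODE M21 (99.7% of identifiers matched), which may not be the release the authors counted with.

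Counts were filtered with filterByExpr, scaled with TMM and fitted in edgeR 4.0.16 (R 4.3.3) over all 12 libraries with 3 groups and 9 residual degrees of freedom. Groups were compared pairwise by the quasi-likelihood test (two-sided), and p-values were adjusted by Benjamini-Hochberg over 14687 genes. The SE comes from the F statistic, and 95% intervals from the t distribution. Alternatives were DESeq2 1.42.0, other scalings, no filter, the batch as a block (6 residual degrees of freedom), fits of 2 groups and leaving out each library. Within-batch differences use log2 CPM with a prior count of 2. Numbers pair the samples because the labels give each number a batch; deviations from group means correlated at 0.31 to 0.74 between same-numbered libraries (12 of 12 pairs over 0.1).

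Sequence identities were aligned with Biopython 1.88; promoter windows are RefSeq's (GRCm38.p6). The genes, lists and tests were chosen with earlier results of these data known. Named genes are the 7 members, the other Ms4a genes, Tmem176a and Tmem176b, and those of the 9 genes listed for a link to MS4A proteins that were called against vehicle. For each member the 2 nearest genes outside the family, without predicted ones, are also named. Clec7a and Grn were named outside this rule. Values of some single marker genes are not reported here.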

Additional observations from a re-analysis of the deposited data

Results flagged for a closer look

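In 4 of 21 groups of 4 libraries (7 genes in 3 groups), 1 library lay far from the other 3 by Dixon's test at 95%, run on CPM. Chance flags about 1 in 20 such groups where values are normal and groups independent. Here the genes share the same libraries and the log2 scale was not tested, so the number of flags cannot be set against that rate. FL-NfL replicate 1 was the low library for Ms4a7 (566 CPM, the others 913 to 943). CC-NfL replicate 1 was the low library for Ms4a6c (205 CPM, the others 446 to 483). Vehicle replicate 3 was the high library for Ms4a4a (97.2 CPM, the others 32.6 to 42.0) and for Ms4a4c (66.0 CPM, the others 10.1 to 19.4).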

How the results depend on the processing

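The log2 fold changes of the 7 genes were refitted in 19 alternatives. Against vehicle, no FL-NfL change turned its sign, with 119 of 133 values on the same side of the threshold, 8 losing the call and 6 gaining it. For CC-NfL, 129 of 133 kept side and sign and 4 changed sign: Ms4a4b without CC-NfL replicate 3 (−0.20), vehicle replicate 1 (−0.15) or vehicle replicate 4 (−0.03), with a range of −0.2008 to 0.7602 over single libraries left out, and Ms4a4a without vehicle replicate 3, with a range of −0.8997 to 0.0556. For FL-NfL against CC-NfL, Ms4a7 changed sign without CC-NfL replicate 1 (range −0.0314 to 0.2948) and Ms4a4a without CC-NfL replicate 3 (range −0.4964 to 0.1893), and of the other values 123 were unchanged in sign and call, 7 lost the call and 1 gained it.

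With the replicate number as a block, FL-NfL against vehicle had 3148 genes higher and 3284 lower (2062 and 1594 without it), and 5 and 1 of the Ms4a genes. CC-NfL against vehicle then had 1 gene higher and 1 lower, and FL-NfL against CC-NfL 1321 higher and 1485 lower (202 and 197 without it), with 2 Ms4a genes higher. The block changed no other count of Ms4a calls. DESeq2 gave 25 higher and 9 lower genes for CC-NfL against vehicle and 714 and 583 for FL-NfL against CC-NfL; with only the 2 groups compared these were 85 and 83. The cause of these differences was not tested.

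When 1 library at a time was omitted, FL-NfL against vehicle had between 1392 and 2349 genes higher and between 992 and 1735 lower, and 1 to 5 Ms4a genes higher. CC-NfL against vehicle had 0 to 18 higher and 0 to 8 lower, both at most without CC-NfL replicate 1. FL-NfL against CC-NfL had 14 to 324 higher and 18 to 277 lower, with 0 to 1 Ms4a genes higher. Depth limits Ms4a4b, with at most 63 counts in a library.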
